A study of Mus musculus with 13 samples.

Results

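The 39 genes described here encode proteins of the extracellular matrix other than collagens, together with a fibroblast surface protease. They were chosen by symbol, with earlier results of these data known. Each matched 1 of the 55357 genes in the count table. All 39 passed the filter on low counts, which kept 22876 genes. They were read in 5 classes: fibronectin with the matricellular genes (8 genes), elastic fiber genes (12), proteoglycans (7), basement membrane genes (8), and a last group of 4 that holds the collagen-binding proteins Dpt, Tnxb and Cthrc1 and the fibroblast protease Fap.

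Total RNA was sequenced from mouse tail tissue with lymphedema, the swelling that follows when lymph is not drained. The 7 TNTSham and 6 TNTProx1 samples were all taken at day 28 after TNT from mice aged 12 weeks. The labels do not spell out TNT, the construct, the strain or the sex, and they do not say whether each sample came from its own animal. The p-values therefore measure the spread between these samples, which may be technical in part. The name of the second group points to Prox1, a transcription factor of lymphatic endothelium. Because the samples are bulk tissue, fewer cells of a type and less RNA per cell cannot be told apart.

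Matrix proteins other than collagens do different jobs in skin. Fibronectin and the matricellular proteins mostly signal to cells and steer how matrix is assembled, and several are made in abundance during wound repair. Elastic fibers have an elastin core laid down on a scaffold of fibrillin microfibrils, with fibulins, emilins and microfibril-associated proteins helping the assembly. Small leucine-rich proteoglycans such as decorin and lumican bind collagen fibrils and regulate their width, whereas versican is a large proteoglycan that binds hyaluronan. Laminins and nidogens, with perlecan and network collagens, form the basement membranes under epithelia and around vessels, muscle and nerve. In chronic lymphedema the skin is known to thicken and become fibrotic.

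The libraries held 29691929 to 48007392 counts each. They are numbered here within each group in the order the samples are listed, and these numbers pair nothing. Levels below are CPM, a gene's counts over those of all genes kept by the filter in its library, scaled by edgeR's TMM factors. Libraries TNTProx1 4 to 6 stood apart from the other 10. In them, genes of the TEC class, an annotation class of transcripts that still lack experimental support, took 0.136% to 0.193% of the counts, against 0.378% to 0.745% elsewhere, and the nuclear RNA Malat1 was at 3410 to 3539 CPM against 8979 to 16810. Prox1 itself averaged 28.1 ± 2.9 CPM in TNTSham and 37.5 ± 19.0 in TNTProx1 (SD), with an adjusted p of 0.506 in edgeR. Results are also given for the 10 libraries without these 3. The keratins Krt5, Krt10 and Krt14 and the fibroblast receptor Pdgfra were present in every library. Krt14 was as low as 479 CPM in TNTProx1 2, where the summed keratinocyte markers were also lowest, at 6690 CPM.

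The matrix genes were mostly higher in TNTProx1. The log2 fold change was above 0 for 36 of the 39 genes, against 47.6% of all tested genes. Its median over the 39 was 0.26, against -0.02 over all tested genes. Because the 39 were chosen with earlier results known, these contrasts describe the list and do not test it. No gene of the 22876 passed an adjusted p of 0.05 in edgeR's quasi-likelihood test (0% in either direction), and the smallest adjusted p, shared by 33 genes, was 0.0848. At an unadjusted p under 0.05, 13 of the 39 genes (33.3%) were higher and none was lower. The shares over all tested genes were 8.33% higher and 3.92% lower. Among the 4341 genes whose average of the 2 group means was at least that of the lowest of the 39 genes, 13.2% were higher. The shares of all genes given for other fits below were not limited by level and include genes lower than these. DESeq2, run on the same counts, called 5 of the 39 genes higher at an adjusted p under 0.05 (Sparc, Efemp2, Emilin1, Mfap2 and Cthrc1), where it called 1.98% of all genes higher. Limma's voom with quality weights called 6 (Sparc, Eln, Emilin1, Mfap2, Nid2 and Fap), beside 1.86% of all genes.

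In none of the 39 genes did all 6 TNTProx1 libraries lie above the TNTSham range, or all 6 below it. Over all tested genes these shares were 0.398% and 0.214%. In 6 genes (Sparc, Fbln1, Efemp2, Emilin1, Mfap2 and Cthrc1), 5 of the 6 TNTProx1 libraries lay above every TNTSham library. The exception was TNTProx1 1 each time. The share of all tested genes with 5 of 6 libraries above was not counted, so these 6 genes stand without a background. With TNTProx1 1 left out, these same 6 genes had an adjusted p under 0.05 in edgeR, and so did 2.07% of all genes in that direction. With TNTSham 5 left out the call held for Emilin1 alone, beside 0.137% of all genes. With any other single library left out, no tested gene had an adjusted p under 0.05 in edgeR. The 6 genes were picked for being separate in all TNTProx1 libraries but TNTProx1 1. Leaving out that library therefore favors them by construction. The same limit applies to the adjusted p-values without TNTProx1 1 that are given for single genes below. TNTProx1 3 was the highest of the 13 libraries for 17 of the 39 genes, and TNTSham 2 was the lowest for 13.

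**Figure D1:**
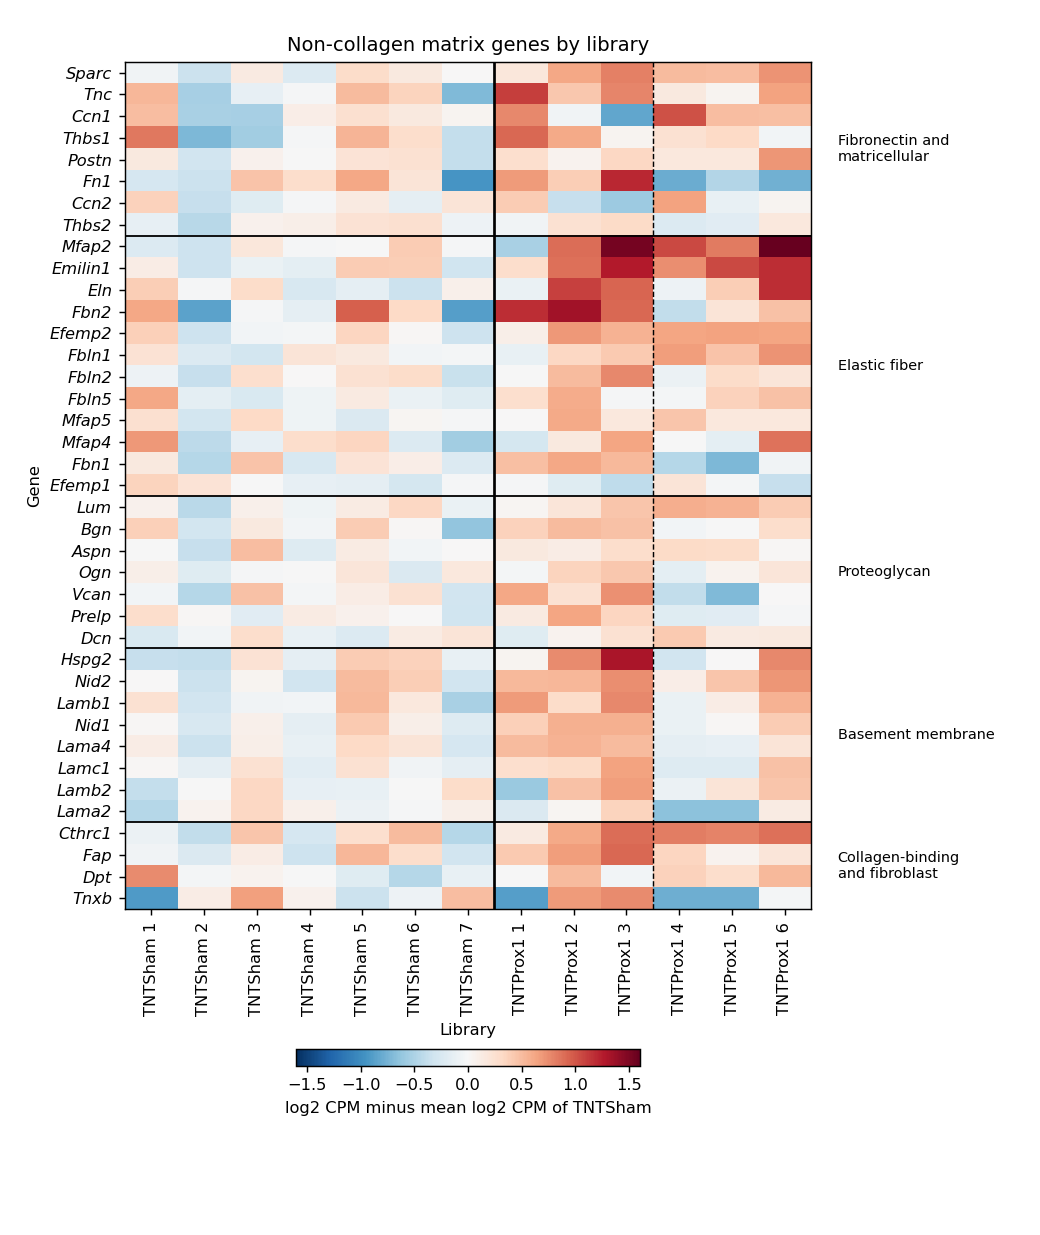
Level of each of the 39 genes (rows, by class) in each of the 13 libraries (columns), as a log2 difference from the gene's mean over TNTSham. Most rows are higher in the TNTProx1 columns, with TNTProx1 3 highest for 17 genes, and the long genes Fn1, Fbn1 and Vcan are lower in TNTProx1 4 to 6 than in TNTProx1 1 to 3.

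**Figure D2:**
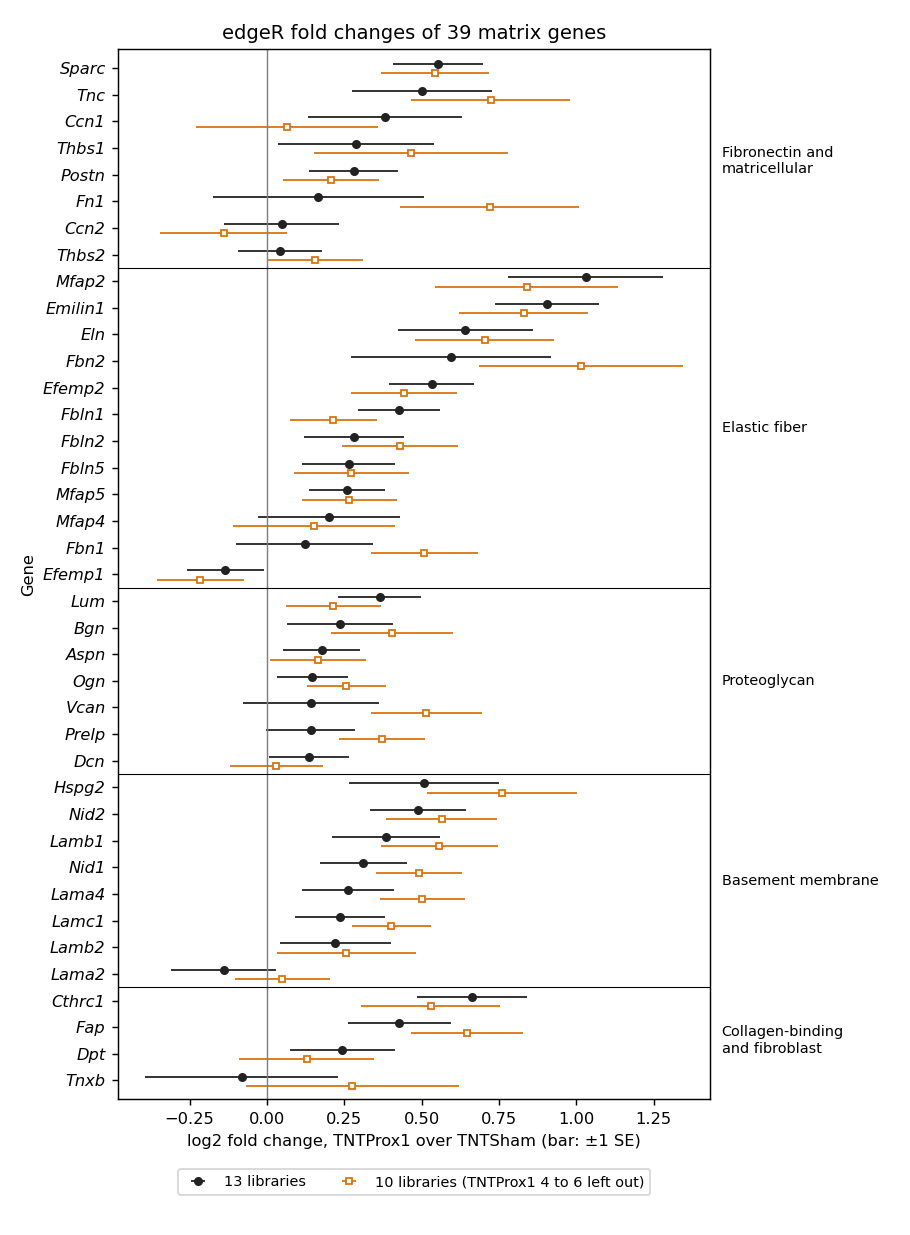
Log2 fold change of TNTProx1 over TNTSham for each gene, with its standard error, from all 13 libraries and from the 10 libraries without TNTProx1 4 to 6. Of the 39 genes, 36 lie above 0 with 13 libraries and 37 with 10.

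Fibronectin and the matricellular genes were all higher on the mean, but only Sparc and Tnc had an unadjusted p under 0.05. The median log2 fold change of the 8 genes was 0.28, with a range of 0.04 to 0.55. Sparc encodes a collagen-binding glycoprotein that is abundant in remodelling tissue and bone. Its level in TNTSham was 4440 CPM at the lowest, 5685 at the median and 6934 at the highest, and in TNTProx1 it was 6396, 8334 and 9906. TNTProx1 1, at 6396 CPM, was the only TNTProx1 library inside the TNTSham range. The log2 fold change was 0.55 ± 0.15 (SE), with an adjusted p of 0.133 in edgeR over all 13 libraries and 0.0351 without TNTProx1 1. Per kilobase of exon, Sparc was the most abundant of the 39 genes, at 1506 ± 230 CPM per kb in TNTSham (SD, n = 7). The 8 genes made up 54.4% of the per-kilobase sum of all 39 genes in TNTSham and 57.2% in TNTProx1.

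Tnc encodes tenascin-C, a matrix protein that is low in resting adult skin and high in wounds. It ran from 437.5 to 1029 CPM in TNTSham, with a median of 706.9, and from 735.8 to 1537 in TNTProx1, with a median of 1041. The groups overlapped, and TNTProx1 1 was the highest of all 13 libraries. On the log2 scale TNTProx1 was higher by 0.50 ± 0.23 (SE), and edgeR gave an adjusted p of 0.393. Postn encodes periostin, which binds collagen and integrins. It ran from 1624 to 2490 CPM in TNTSham (median 2215) and from 2199 to 3424 in TNTProx1 (median 2452), a log2 fold change of 0.28 ± 0.14 (edgeR adjusted p = 0.452). The highest value, in TNTProx1 6, stood apart from the other 5 TNTProx1 libraries, which ended at 2658 CPM, and without it the log2 fold change was 0.18.

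Fibronectin (Fn1), the provisional matrix to which cells attach in wounds, split the TNTProx1 group. Its level was 5135, 4186 and 7384 CPM in TNTProx1 1, 2 and 3 and 1844, 2301 and 1873 in TNTProx1 4, 5 and 6. The TNTSham libraries ran from 1654 to 4883 CPM, so the first 3 were in or above that range and the last 3 were in its lower part. The log2 fold change was 0.17 ± 0.34 over 13 libraries and 0.72 ± 0.29 over the 10 without TNTProx1 4 to 6 (edgeR adjusted p = 0.869 and 0.176). Ccn1 and Ccn2, secreted proteins whose genes respond quickly to YAP and to stretch, were 0.38 ± 0.25 and 0.05 ± 0.19. Over the 10 libraries they were 0.06 ± 0.29 and -0.14 ± 0.21. Both genes were highest of all in TNTProx1 4 and lowest in TNTProx1 3. The thrombospondins Thbs1, an activator of latent TGF-beta, and Thbs2, which restrains vessel growth, were 0.29 ± 0.25 and 0.04 ± 0.14 on the log2 scale, and neither had an unadjusted p under 0.05.

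The elastic fiber genes held the 2 largest fold changes of the 39, those of Mfap2 and Emilin1. Of the 12, 5 had an unadjusted p under 0.05, all higher, and the median log2 fold change of the 12 was 0.35. Emilin1 encodes a glycoprotein at the surface of elastin that also anchors lymphatic vessels. It was 27.8 CPM at the lowest in TNTSham, 32.6 at the median and 46.3 at the highest, and 42.5, 68.8 and 84.2 in TNTProx1. TNTProx1 1 held the lowest value of its group and the only one inside the TNTSham range. Emilin1 had a log2 fold change of 0.91 ± 0.17 (SE), with an adjusted p of 0.0848 in edgeR. That adjusted p was 0.00984 without TNTProx1 1, 0.0464 without TNTSham 5 and 0.257 without TNTSham 2. Over the 10 libraries the log2 fold change of Emilin1 was 0.83 ± 0.21 (edgeR adjusted p = 0.0729).

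Mfap2 encodes a small glycoprotein of fibrillin microfibrils. It ran from 28.0 to 46.6 CPM in TNTSham, with a median of 34.7. In TNTProx1 the lowest value was 24.6, the median 69.3 and the highest 108.7. TNTProx1 1, at 24.6 CPM, was the lowest of all 13 libraries, while the other 5 TNTProx1 libraries lay above the whole TNTSham range. Its log2 fold change was 1.03 ± 0.25 (edgeR adjusted p = 0.123), and 1.21 without TNTProx1 1 (edgeR adjusted p = 0.00901). Without TNTSham 2 it was 0.98 (edgeR adjusted p = 0.287). Efemp2 encodes a fibulin that elastin needs for its assembly and cross-linking. It was 34.8, 42.8 and 57.1 CPM at the lowest, median and highest in TNTSham and 46.7, 67.8 and 70.7 in TNTProx1. Again only TNTProx1 1 overlapped TNTSham, and the other 5 libraries lay within 64.4 to 70.7 CPM. For Efemp2 the log2 fold change came to 0.53 ± 0.14 (edgeR adjusted p = 0.129). The edgeR adjusted p was 0.0263 without TNTProx1 1 and 0.295 without TNTSham 2.

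Elastin itself (Eln) averaged 276 ± 54 CPM over the 7 TNTSham libraries and 431 ± 163 over the 6 TNTProx1 libraries (mean ± SD). TNTProx1 2, 3 and 6 lay above the TNTSham range and the other 3 inside it. Elastin had a log2 fold change of 0.64 ± 0.22 (edgeR adjusted p = 0.242). Fbln1, a fibulin bound to elastic fibers and basement membranes, averaged 75.3 ± 10.5 and 101 ± 20 CPM. Its log2 fold change was 0.43 ± 0.13 over 13 libraries and 0.22 ± 0.14 over 10 (edgeR adjusted p = 0.190 and 0.416). For Fbln1 the edgeR adjusted p was 0.0311 without TNTProx1 1 and 0.396 without TNTSham 2. Fbln1 was the one gene of the 39 in which TNTProx1 4 to 6 all lay above TNTProx1 1 to 3, where 23.1% of all tested genes did so. The fibrillins Fbn1 and Fbn2, the microfibril backbones, were 0.12 ± 0.22 and 0.60 ± 0.32 over 13 libraries. Over the 10 libraries they were 0.51 ± 0.17 and 1.016 ± 0.33 (edgeR adjusted p = 0.122 and 0.109). Efemp1, another fibulin, was the only elastic fiber gene below 0, at -0.14 ± 0.13 on the log2 scale. The remaining 4 genes, Fbln2, Fbln5, Mfap4 and Mfap5, had log2 fold changes from 0.20 to 0.28 and no unadjusted p under 0.05.

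The stretches before the transcription start of 3 of these genes are shown because their levels separated 5 of 6 TNTProx1 libraries from TNTSham and because the stretch was free of annotated exons. They are RefSeq sequences on the GRCm38.p6 build, an earlier build than the one the reads were aligned to, and all 3 read 5′ to 3′ on the plus strand. Mfap2 lies at chr4:141010174-141010417, Fbln1 at chr15:85205699-85205948 and Efemp2 at chr19:5474454-5474687, where the Efemp2 stretch falls in an intron of a longer transcript. Capitals mark matches to the 5 motifs searched on both strands: TATAAA, the TEAD motif GGAATG, the AP-1 motif TGANTCA, the SMAD motif CAGAC, which reads GTCTG where it lies on the other strand, and the Sp1 motif GGGCGG.
Mfap2: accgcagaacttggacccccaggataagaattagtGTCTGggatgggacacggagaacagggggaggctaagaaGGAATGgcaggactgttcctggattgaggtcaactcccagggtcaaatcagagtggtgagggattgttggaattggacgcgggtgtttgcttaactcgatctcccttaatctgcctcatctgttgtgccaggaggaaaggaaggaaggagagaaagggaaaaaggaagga
Fbln1: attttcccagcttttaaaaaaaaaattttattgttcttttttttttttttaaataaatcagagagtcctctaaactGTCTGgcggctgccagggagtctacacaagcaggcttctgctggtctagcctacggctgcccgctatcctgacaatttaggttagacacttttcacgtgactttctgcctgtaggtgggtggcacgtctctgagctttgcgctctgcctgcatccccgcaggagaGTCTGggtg
Efemp2: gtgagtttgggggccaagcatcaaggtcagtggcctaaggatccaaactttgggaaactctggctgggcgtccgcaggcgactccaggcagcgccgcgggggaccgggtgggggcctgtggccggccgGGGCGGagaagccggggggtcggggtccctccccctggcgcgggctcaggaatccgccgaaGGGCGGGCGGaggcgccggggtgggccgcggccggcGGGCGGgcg
Mfap2 held a TEAD match 176 bases and a SMAD match 215 bases before its start. Fbln1 held SMAD matches 174 and 9 bases before its start, and Efemp2 held Sp1 matches at 108, 47, 43 and 11 bases, of which the middle pair overlap. A window of the same design was listed for 25 of the 39 genes, which had 32 windows in all. Of those windows, 15 held CAGAC, 17 GGGCGG, 7 TATAAA, 4 GGAATG and 2 TGANTCA. Among all 32851 windows the shares were 42.2%, 32.7%, 12.4%, 12.6% and 6.75%. A match describes letters in the window and no binding was measured.

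**Figure D3:**
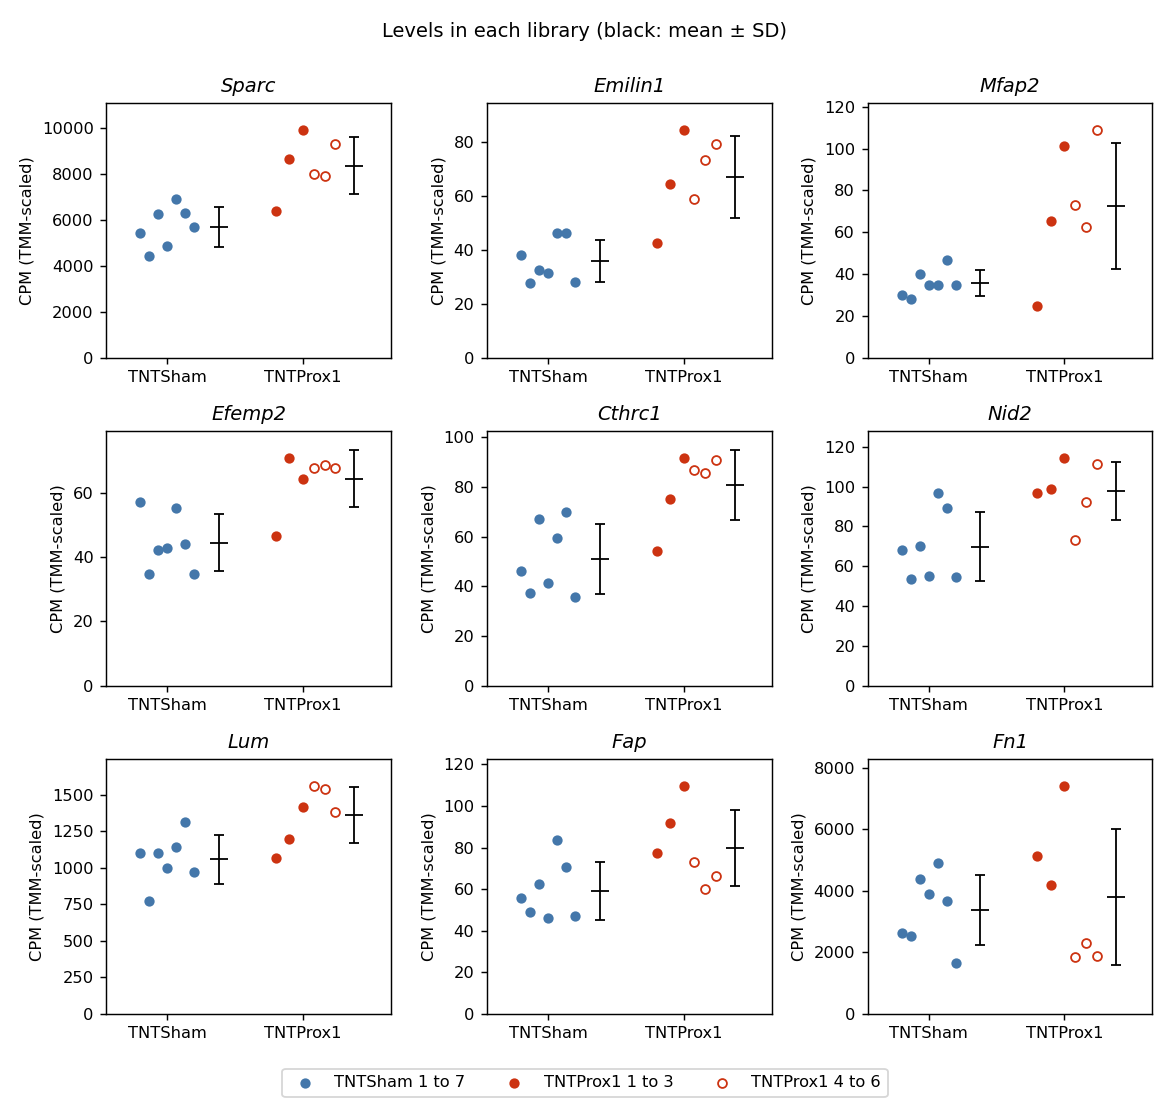
Level in CPM of 9 of the genes in every library (points), with group means and SDs, TNTProx1 4 to 6 marked apart from TNTProx1 1 to 3. In Sparc, Emilin1, Mfap2, Efemp2 and Cthrc1 the one TNTProx1 point inside or below the TNTSham range is TNTProx1 1, and Fn1 lies lower in TNTProx1 4 to 6.

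The proteoglycans had the smallest median of the 5 classes, with 13 libraries and with 10. All 7 were higher on the mean, with log2 fold changes from 0.14 to 0.36 and a median of 0.15, and only Lum had an unadjusted p under 0.05. The median was 0.09 without TNTProx1 3 and 0.22 without TNTSham 3. Lum encodes lumican, which binds collagen fibrils in skin and cornea. It was 772.4, 1099 and 1313 CPM at the lowest, median and highest in TNTSham and 1070, 1399 and 1557 in TNTProx1. TNTProx1 3 to 6 lay above the TNTSham range and TNTProx1 1 and 2 inside it. Lum had a log2 fold change of 0.36 ± 0.13 (edgeR adjusted p = 0.276), and 0.22 ± 0.15 over 10 libraries. Aspn, for asporin, ran from 255.0 to 465.5 CPM in TNTSham (median 328.9) and from 333.9 to 407.9 in TNTProx1 (median 385.7). Every TNTProx1 value lay inside the TNTSham range, and the log2 fold change was 0.18 ± 0.13 (edgeR adjusted p = 0.613). Bgn, for biglycan, ran from 1172 to 2404 CPM (median 1832) and from 1747 to 2559 (median 2262), with a log2 fold change of 0.24 ± 0.17 (edgeR adjusted p = 0.623). Decorin (Dcn), whose loss leaves skin fragile, averaged 2111 ± 307 CPM in TNTSham and 2319 ± 316 in TNTProx1. Ogn and Prelp, further small leucine-rich members, were 0.15 ± 0.11 and 0.14 ± 0.14. Versican (Vcan) was 0.14 ± 0.22 over 13 libraries and 0.52 ± 0.18 over 10 (edgeR adjusted p = 0.822 and 0.129). Per kilobase, the 7 genes summed to 1453 ± 150 CPM per kb over the 7 TNTSham libraries and 1708 ± 113 over the 6 TNTProx1 libraries (mean ± SD).

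Of the basement membrane genes, 7 of 8 were higher on the mean and 3 (Nid2, Nid1 and Lamb1) had an unadjusted p under 0.05. The median log2 fold change was 0.29. Nid2, one of 2 nidogens that link laminin to collagen networks, was 53.8, 68.4 and 96.7 CPM at the lowest, median and highest in TNTSham and 73.1, 97.9 and 114.2 in TNTProx1. TNTProx1 1, 2, 3 and 6 lay above the TNTSham range, TNTProx1 1 by the least, and TNTProx1 4 and 5 inside it. Nid2 had a log2 fold change of 0.49 ± 0.16 (edgeR adjusted p = 0.1999). Nid1 ran from 302.5 to 484.4 CPM (median 366.3) in TNTSham and from 337.1 to 537.4 (median 475.8) in TNTProx1, a log2 fold change of 0.31 ± 0.14 (edgeR adjusted p = 0.392). Lamb1, a laminin beta chain, ran from 91.6 to 187.4 CPM (median 127.7) and from 122.5 to 223.4 (median 177.1), with a log2 fold change of 0.38 ± 0.17 (edgeR adjusted p = 0.393). Both overlapped widely between the groups. Perlecan (Hspg2) was more variable, at 543 ± 126 and 772 ± 332 CPM, with a log2 fold change of 0.51 ± 0.24. Without TNTProx1 3, its highest library, the value was 0.27, and with a score of bone markers as a covariate it was 0.14. The laminin chains Lama4, found around vessels, and Lamc1, shared by most laminins, were 0.26 ± 0.15 and 0.24 ± 0.15, and Lamb2 was 0.22 ± 0.18. Lama2, a chain of the muscle and nerve laminin, was -0.14 ± 0.17.

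Over the 10 libraries without TNTProx1 4 to 6 the basement membrane genes were all 8 above 0, with a median of 0.50, and 6 had an unadjusted p under 0.05. With a score of bone markers as a covariate, described with the markers further on, the median over all 13 libraries was 0.08 and none of the 8 had an unadjusted p under 0.05. Fbn1, Nid2, Lama4 and Lamc1 were the 4 of the 39 genes in which TNTProx1 1 to 3 all lay above the TNTSham range, as in 3.45% of all tested genes.

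In the last group, Cthrc1, a secreted protein made by activated fibroblasts, was 35.9, 46.3 and 70.0 CPM at the lowest, median and highest in TNTSham. In TNTProx1 it was 54.4, 86.3 and 91.5. Only TNTProx1 1 lay inside the TNTSham range. Cthrc1 had a log2 fold change of 0.66 ± 0.18 (edgeR adjusted p = 0.138, and 0.0344 without TNTProx1 1). Fap, a serine protease on activated fibroblasts, was 46.2 to 83.6 CPM (median 55.6) in TNTSham and 60.2 to 109.4 (median 75.2) in TNTProx1. TNTProx1 2 and 3 lay above the TNTSham range, and the log2 fold change was 0.43 ± 0.17 (edgeR adjusted p = 0.300). Dpt, for dermatopontin, which binds decorin and collagen, was 77.2 to 178.4 CPM (median 103.5) and 102.5 to 151.8 (median 132.8), all of it inside the TNTSham range. Its log2 fold change was 0.24 ± 0.17 (edgeR adjusted p = 0.608). Tenascin-X (Tnxb), whose loss makes skin hyperextensible, was -0.08 ± 0.31 over 13 libraries and 0.28 ± 0.35 over 10.

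Without TNTProx1 4 to 6 the number of the 39 genes with an unadjusted p under 0.05 and a higher mean went from 13 to 20 (51.3%), beside 9.34% of all genes tested there. The median log2 fold change went from 0.26 to 0.41. Over all genes with an unadjusted p under 0.05, the share that was higher was 68.0% with 13 libraries and 43.5% with 10. No gene of that fit passed an adjusted p of 0.05 (0%). With the TEC share of each library as a covariate, 18 of the 39 (46.2%) were higher at an unadjusted p under 0.05. None of the 39 was lower at that p. Of all genes, 7.57% were higher at that p. More genes were lower, and 40.7% of all genes at that p were higher. One of the 18, Emilin1, had an adjusted p under 0.05, beside 0.782% of all genes in the same direction.

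The 3 libraries differed from TNTProx1 1 to 3 by gene length. In 8 of the 39 genes (Fn1, Fbn1, Fbn2, Bgn, Prelp, Vcan, Lama4 and Fap) every value in TNTProx1 4 to 6 was below every value in TNTProx1 1 to 3, as it was in 24.6% of all tested genes. Of the 12 genes with more than 8 kb of exon, 11 were lower on the mean in TNTProx1 4 to 6, with a median log2 difference of -0.55. Fn1 was lowest, at -1.47, followed by Fbn2 at -1.016. Of the 14 genes under 4 kb, 3 were lower, and the median was 0.16. In the 13 genes from 4 to 8 kb the median was -0.24. All genes above 10 CPM were ordered likewise, with medians of 0.46 under 4 kb, 0.02 from 4 to 8 kb and -0.31 over 8 kb. Against TNTSham, the median log2 fold change of the 12 longest genes was 0.25 with 13 libraries and 0.51 with 10, and that of the 14 shortest was 0.25 and 0.24. The part of length in the TNTProx1 values of these genes was not tested beyond this comparison.

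**Figure D4:**
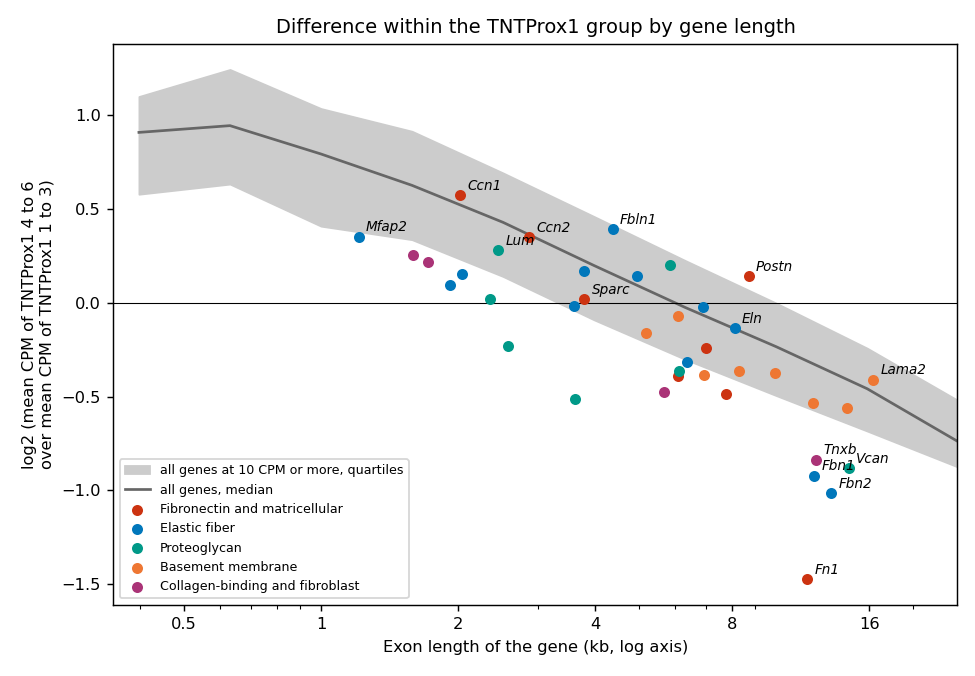
Log2 ratio of the mean level in TNTProx1 4 to 6 over that in TNTProx1 1 to 3 against exon length (log scale) for the 39 genes, with the median and quartiles of all genes above 10 CPM as a band. The band and the 39 genes both run downward with length, and 11 of the 12 genes over 8 kb lie below 0.

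Other genes of the same pathways were counted from lists of their own. In the same fit, 8.33% of all tested genes were higher and 3.92% lower at an unadjusted p under 0.05. Of 17 further matricellular genes tested, 17 were higher on the mean and 5 had an unadjusted p under 0.05, none lower. Spp1, for osteopontin, a matricellular protein of bone and macrophages, had a log2 fold change of 0.93 ± 0.22 and Fstl1 of 0.47 ± 0.13. Of 20 further elastic fiber genes, 8 had an unadjusted p under 0.05, all higher, with a median of 0.36. Loxl1 and Loxl4, enzymes of the family that cross-links elastin and collagen, were 0.73 ± 0.18 and 0.72 ± 0.15. The lowest p among the genes below 0 belonged to Hmcn1, at -0.12, and Emilin3, at -0.08. Of 17 further proteoglycans, 3 were higher and 1 lower at that p, led by Bcan at 1.49 ± 0.31, from a low level of 1.29 CPM in TNTSham, and Srgn, a proteoglycan of blood cells, at 0.53 ± 0.22. Kera was -0.48 ± 0.21 and Podn -0.14 ± 0.17.

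Of 21 further basement membrane genes, 5 were higher and 3 lower at an unadjusted p under 0.05, and the median was 0.00. Col15a1 and Col4a2, collagens of vessel and other basement membranes, were 0.69 ± 0.18 and 0.75 ± 0.21. Frem2 and Fras1, which hold the epidermis to the dermis in development, were -0.63 ± 0.20 and -0.51 ± 0.21. Of 29 matrix receptors, 6 were higher and 1 lower, with a median of 0.11. Sdc3, a syndecan, and Itgb3, an integrin chain of platelets, osteoclasts and vessels, were 0.64 ± 0.15 and 0.85 ± 0.20, and Itgb8 and Itgb6 were -0.35 ± 0.13 and -0.48 ± 0.30. No gene of these 5 lists had an adjusted p under 0.05 in edgeR.

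Markers of several cell types were counted in the same fit, and none of them had an adjusted p under 0.05 in edgeR. The ranges of every summed level below overlap between the groups. The part of these cells in the matrix values was not tested beyond the fits given here. Of 12 bone markers, all were higher on the mean and 5 had an unadjusted p under 0.05. Their summed level ran from 170 to 883 CPM in TNTSham and from 563 to 1106 in TNTProx1. Sparc and Spp1 are made in quantity by bone cells, and Ibsp, a defining bone marker, was present in every library, at 31.4 CPM or more. With a score of these markers, the mean of their scaled log2 levels, as a covariate, 6 of the 39 genes (15.4%) had an unadjusted p under 0.05 and a higher mean, beside 3.34% of all genes, and the median log2 fold change of the 39 was 0.14. The 6 were Sparc, Fbln1, Efemp2, Emilin1, Mfap2 and Cthrc1. The score itself ran from -1.98 to 0.56 in TNTSham and from 0.06 to 0.84 in TNTProx1. Sparc was 0.34 in that fit, against 0.55 without the covariate, and Cthrc1 was 0.41 against 0.66. Emilin1 and Mfap2 were 0.68 and 0.83, against 0.91 and 1.03. Nid2 was 0.20 against 0.49, and Fap 0.16 against 0.43. By class, the median was 0.18 for the matricellular genes, 0.21 for the elastic fiber genes, 0.05 for the proteoglycans, 0.08 for the basement membrane genes and 0.21 for the last group. Blood endothelial markers ran from 378 to 703 CPM against 668 to 916, with 9 of 11 higher at an unadjusted p under 0.05, and lymphatic markers from 382 to 492 against 396 to 925, with 5 of 8. Pericyte and smooth muscle markers ran from 1003 to 1361 against 1036 to 1876, with 4 of 9 higher at that p, and macrophage markers from 1355 to 2250 against 1543 to 2440, with 6 of 10.

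Cartilage markers ran from 335 to 870 CPM in TNTSham and from 502 to 1057 in TNTProx1, with 4 of 10 higher at an unadjusted p under 0.05. Fibroblast markers ran from 2002 to 2675 and from 1906 to 2782, with 4 of 12 higher at that p, and myofibroblast markers from 393 to 803 and from 575 to 861, with none of 7. Skeletal muscle markers ran from 9694 to 17309 against 5213 to 12247, with 6 of 12 lower. Keratinocyte markers ran from 29194 to 44946 against 6690 to 59487, with 1 of 11 lower. Tendon markers ran from 2180 to 3023 and from 2314 to 4295, adipocyte markers from 106 to 266 and from 138 to 227, and Schwann cell markers from 182 to 411 and from 180 to 316. Of those 3 lists, 1 tendon marker, Kera, had an unadjusted p under 0.05. No marker was at 0 in every library.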

How the data were processed

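Total RNA of 13 tail samples (7 TNTSham, 6 TNTProx1) was sequenced as ribosomal RNA-depleted, stranded paired-end libraries, per the labels' protocols. The deposited table holds raw counts per gene. Per the submitters' processing notes, the authors used fastp 0.20.1, HISAT2 2.2.1, featureCounts of Subread 2.0.2 and the build GRCm39. No source used here gives the strand setting, the annotation release or the handling of reads with several alignments, so overlapping and near-identical genes are uncertain.

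Symbols and exon lengths came from GENCODE M21 by identifier, for 52081 genes. Counts were filtered with filterByExpr, scaled by TMM and tested with the quasi-likelihood F test of edgeR 4.0.16 under R 4.3.3 on the group alone, over all 13 libraries. Adjusted p-values are Benjamini-Hochberg values over the 22876 tested genes, with a threshold of 0.05. The biological coefficient of variation was 0.362. Means are given ± SD and log2 fold changes ± SE. Alternatives were DESeq2 1.42.0, limma 3.58.1 voom, other filters and scalings, covariates, and libraries left out. The scripts were tested on simulated data. There DESeq2 called 59 unchanged genes, against 10 with edgeR and 9 with voom. Of 50 genes changed by 1.5-fold, edgeR recovered 14, DESeq2 20 and voom 13. The 39 genes and all lists were chosen with earlier results of these data known. Statistics in full are given for the 3 genes of smallest p per class, and of each further list the 2 of smallest p per direction are named. RefSeq windows reach 250 bases before the start.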

Additional observations from a re-analysis of the deposited data

Results flagged for a closer look

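Within-group spread was checked for the 39 genes in both groups, 78 sets of values, and 4 held a library far from the others, where chance alone gives about 1 in 20. Postn was 3424 CPM in TNTProx1 6, and the other 5 TNTProx1 libraries were between 2199 and 2658. Efemp2 was 46.7 CPM in TNTProx1 1, below the other 5 at 64.4 to 70.7. Fbln5, a fibulin that binds elastin and integrins, was 142.6 CPM in TNTSham 1, where the other 6 TNTSham libraries were between 78.4 and 102.1. Dpt was 178.4 CPM in TNTSham 1, against 77.2 to 109.8 in the other 6.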

How the results depend on the processing

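The sign of the log2 fold change held in all 23 alternatives for 31 of the 39 genes. The number of all genes with an adjusted p under 0.05, 0 in edgeR, was 619 with DESeq2, 573 with voom, 545 with the TEC share as covariate and 1 without a filter, and 0 to 589 with 1 library left out. Of the 39 genes, 5, 6 and 1 passed with DESeq2, voom and the TEC share, and 0 to 6 with 1 library left out (6 without TNTProx1 1, 1 without TNTSham 5). The 13 genes at an unadjusted p under 0.05 became 20 in the 10 libraries and 6 with the bone covariate, all higher. With voom they became 25 in either direction, with Efemp1 among them lower, at -0.28. The share of all tested genes at that p with voom is not given here, so the 25 stand without a background. Of all genes at that p with voom, 48.1% were higher. The proteoglycan median, 0.15, was 0.31 with voom, 0.26 with the TEC share, 0.26 in the 10 libraries, 0.05 with the bone covariate and 0.09 to 0.22 with 1 library left out. The basement membrane median, 0.29, was 0.49 with voom, 0.50 in the 10 libraries and 0.08 with the bone covariate. Signs turned in 8 genes that no fit called. With 1 library left out, Fn1 ran from -0.15 to 0.31, Thbs2 from -0.032 to 0.091, Ccn2 from -0.10 to 0.13, Vcan from -0.013 to 0.27 and Tnxb from -0.31 to 0.045. With the bone covariate, Fn1 was -0.029, Thbs2 -0.085, Fbn1 -0.17 and Vcan -0.063. With voom, Ccn1 was -0.125, Ccn2 -0.23, Lama2 0.064 and Tnxb 0.23. In the 10 libraries, Ccn2 was -0.14, Lama2 0.05 and Tnxb 0.28, and with the TEC share Ccn2 was -0.055 and Tnxb 0.079. The cause was not tested. No paired analysis was possible because the labels give no replicate numbers. The lowest average of the 2 group means among the 39 genes was 51.4 CPM.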
